A study of Homo sapiens with 6 samples.

Results

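The neurotrophin genes described here are 7: the ligand genes BDNF and NTF3, the receptor genes NTRK2, NTRK3 and NGFR, and the sortilin-type receptor genes SORT1 and SORCS2. They were taken by symbol from the 38900 Ensembl gene IDs of the deposited table, and all 7 were found. The genes were chosen by the measured values of BDNF, which was higher under combretastatin A4 with very little spread between replicates, so the values of BDNF in this comparison, and those of the other 6 genes beside it, are given as a description with no test. RNA came from hTERT RPE1, an established line of human retinal pigment epithelium cells made immortal with telomerase. All cultures were held at 100% confluency for 5 days, to bring the cells to rest, and were then treated in fresh medium for 6 hours. One group had 100 nM combretastatin A4 (CA4), a plant-derived compound that binds tubulin and disassembles microtubules, and the control group had 0.1% DMSO, the solvent. PolyA RNA of 3 replicates a group was sequenced.

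Neurotrophins are secreted growth factors that keep neurons alive and shape their connections. They are made as longer proproteins, which proteases such as furin cut to the mature factor. Mature BDNF acts through the tyrosine kinase receptor TrkB, the product of NTRK2, and NT-3, the product of NTF3, acts mainly through TrkC, the product of NTRK3. All neurotrophins can also bind p75, the product of NGFR, and the uncut forms bind p75 together with a sortilin-type receptor. Sortilin, the product of SORT1, also sorts proBDNF inside the cell into the regulated secretory pathway. The retinal pigment epithelium is known as a source of trophic factors for the neighbouring retina.

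The libraries held 19524936 to 22538004 recovered reads. A normalized count is a read count that the authors divided by 1 scaling factor per library, and here 1 read is worth 0.9349 to 1.122 normalized counts. Of the 13928 genes whose mean reached 10 normalized counts, 688 (4.94%) passed an adjusted p of 0.05 between CA4 and DMSO in limma, 413 of them higher (2.97%) and 275 lower (1.97%) in CA4. The epithelial keratins KRT8 and KRT18 were abundant in all 6 libraries, at 8393 normalized counts or more, and the pigment epithelium factors OTX2 and MITF were read at 226 to 1085. Of the mature pigment epithelium markers, BEST1 was read at 42.5 to 99.7, RPE65 at 13.5 to 40.8 and PMEL at 8.41 to 22.3, while TYR and RLBP1 lay at 5.7 or below. Among 9 such markers, 7 were tested, and OTX2, a transcription factor, was the 1 that passed, lower in CA4 (log2 fold change -1.11, limma adjusted p = 0.0158, from 0.00668 to 0.0816 without 1 library). Of 7 neuron markers 3 were tested and SYT1 passed, lower in CA4 (log2 fold change -2.01, limma adjusted p = 0.00154). The other 2, SNAP25 and SYP, had log2 fold changes of 0.60 and 0.28 and did not pass, and the median of the 3 was 0.28. The summed level of the 7 was 1618 to 2078 in DMSO and 512 to 592 in CA4, most of it SYT1. Of the 4 neuron markers too low to test, RBFOX3 was read in all 6 libraries, at 2.9 to 18.9, and ELAVL3 and ELAVL4 were at 4.67 or below. STMN2 was listed at 0 in the 3 DMSO libraries and had 6.77, 3.37 and 0 in replicates 1, 2 and 3 of CA4. The defining neural crest marker SOX10 was at 8.55 or below. What part these cell markers have in the results was not tested. Of 5 proliferation markers 0 passed in limma (0 at an unadjusted p under 0.05, 0 in edgeR and 0 in DESeq2). MKI67, which marks dividing cells, was higher in replicate 1 of both groups, at 4849 in DMSO and 4233 in CA4 against 1191 to 2388 in the other 4 libraries.

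BDNF lies on chromosome 11 from 27654893 to 27722058, on the minus strand (GRCh38, GENCODE 29). The annotation gives it 19 transcripts from 10 start positions, and each gene has 1 value per library in the deposited table, so the starts cannot be told apart. RefSeq promoter windows (GRCh38.p14) were supplied for 5 of the 7 genes, BDNF, NTF3, NTRK2, NTRK3 and SORT1, with 14 windows in all, 5 of them for BDNF. The 250 bases before each start were searched on both strands for 6 motifs. These were the cAMP response element TGACGTCA, its half-site TGACG (which the full element contains), the AP-1 site TGANTCA, the E-box CACGTG, the kappa-B site and the CArG box. The 3 BDNF windows that hold a match are shown because they place the motifs relative to separate starts of the one gene that the comparison turns on. They are written 5′ to 3′ on the strand of the gene, in lower case, with each match in capitals.
BDNF start at 27720779, chr11:27720780-27721029, minus strand: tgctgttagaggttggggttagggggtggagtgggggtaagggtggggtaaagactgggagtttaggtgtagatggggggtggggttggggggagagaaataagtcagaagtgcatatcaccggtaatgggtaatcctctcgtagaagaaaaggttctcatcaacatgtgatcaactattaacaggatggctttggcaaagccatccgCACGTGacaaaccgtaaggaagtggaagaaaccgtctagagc
BDNF start at 27701621, chr11:27701622-27701871, minus strand: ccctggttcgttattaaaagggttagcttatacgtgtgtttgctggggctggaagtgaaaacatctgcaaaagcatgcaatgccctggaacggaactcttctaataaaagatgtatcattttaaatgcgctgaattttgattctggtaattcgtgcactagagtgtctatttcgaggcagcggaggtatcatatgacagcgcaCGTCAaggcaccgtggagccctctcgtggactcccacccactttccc
BDNF start at 27659658, chr11:27659659-27659908, minus strand: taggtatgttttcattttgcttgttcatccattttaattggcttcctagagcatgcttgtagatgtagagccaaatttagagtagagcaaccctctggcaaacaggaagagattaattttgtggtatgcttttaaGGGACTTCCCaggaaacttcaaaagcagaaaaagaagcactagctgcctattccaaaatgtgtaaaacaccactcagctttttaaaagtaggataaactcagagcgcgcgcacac
The first of these windows holds an E-box 42 bases before the start, a motif present in 6.34% of the 35116 windows of the same length in the supplied table. The next holds the half-site of the cAMP response element, read on the other strand, 47 bases before the start, a motif found in 21.2% of the windows. The last has a kappa-B match 115 bases before the start, as do 9.96% of the windows. The full cAMP response element, the AP-1 site and the CArG box matched in 0 of the 5 BDNF windows. In all windows their shares were 1.65%, 6.57% and 1.16%. A match is a description of the letters and no measure of binding. The windows of NTF3 and SORT1 held 0 matches to the 6 motifs, and those of NTRK2 and NTRK3 held 6 between them.

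BDNF, the ligand of TrkB, was higher in CA4. Replicates 1, 2 and 3 of DMSO had 804, 786 and 797 normalized counts, and those of CA4 had 1833, 1781 and 1716. The groups stood far apart, and the lowest CA4 library held more than any DMSO library. DMSO averaged 795 ± 8.7 and CA4 1777 ± 58.6 (SD, n = 3 each), a ratio of 2.23. On the scale of log2(normalized count + 1) this is 1.16 (standard error 0.08). Of the 413 genes called higher in CA4, 87 had a larger fold change than BDNF. In GENCODE 29, 701 exon bases of BDNF, 9.06% of its exon sequence, are also exon of BDNF-AS, a gene on the opposite strand that was not analysed here. The counting is not stated to use strand, so reads of the 2 genes over those bases cannot be told apart. In bulk RNA, a change in RNA per cell cannot be told apart from a change in how many cells make it.

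NTF3, which encodes NT-3, was read at a far lower level. It had 53.1, 58.9 and 41.8 normalized counts in DMSO and 94.7, 83 and 50.2 in CA4, for replicates 1, 2 and 3. CA4 replicate 3 fell inside the DMSO range, so the groups overlapped. DMSO averaged 51.3 ± 8.71 and CA4 76 ± 23.1 (SD, n = 3 each). The log2 fold change was 0.52 (standard error 0.30), and it was 0.34 without CA4 replicate 1 and 0.79 without CA4 replicate 3. NTF3 lies on chromosome 12 from 5432112 to 5521536 on the plus strand.

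NTRK2 and NGFR were nearly silent. NTRK2, which encodes the BDNF receptor TrkB, was listed at 0 in 4 of the 6 libraries and had 2 recovered reads in DMSO replicate 2 and 1 in CA4 replicate 3. A listed 0 allows up to 3 reads by counting error alone, so no fold is given. NGFR had 2, 3 and 2 reads in replicates 1, 2 and 3 of DMSO and 1 read in each CA4 library. Its normalized counts, 1.9 to 2.8 in DMSO and 0.966 to 1.12 in CA4, did not overlap, but all lie at or under the limit of 3 reads. Neither gene reached the mean of 10 normalized counts needed for the fit, and the other 5 did. In GENCODE 29, 22.3% of the exon bases of NGFR are shared with AC015656.1 and 4.87% with AC006487.1, both on the opposite strand and not analysed here.

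NTRK3, the gene of the NT-3 receptor TrkC, had 18.3, 9.35 and 7.6 normalized counts in DMSO and 19.3, 25.8 and 13.4 in CA4, for replicates 1, 2 and 3. The groups overlapped, since DMSO replicate 1 lay above CA4 replicate 3. DMSO averaged 11.8 ± 5.77 and CA4 19.5 ± 6.22 (SD, n = 3 each), and the log2 fold change was 0.73 (standard error 0.48). At 8 to 23 reads a library, counting error alone is a coefficient of variation of 28.5% in DMSO and 23.4% in CA4. NTRK3 spans 87859751 to 88256768 on the minus strand of chromosome 15.

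SORT1, which encodes sortilin, was the best-read of the 7 genes and its 3 CA4 libraries all lay above the 3 DMSO libraries. Replicates 1, 2 and 3 of DMSO had 4439, 5192 and 5088 normalized counts, and those of CA4 had 5474, 6400 and 6032. The gap between the groups was narrow, from 5192 to 5474. DMSO averaged 4906 ± 408 and CA4 5969 ± 466 (SD, n = 3 each), a ratio of 1.22. The log2 fold change was 0.28 (standard error 0.095), and 0.18 when each library was brought to an equal total, a scaling that moved the median of all tested genes from -0.008 to -0.109. SORT1 lies on chromosome 1 from 109309568 to 109397951 on the minus strand.

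SORCS2 encodes another sortilin-type receptor, a partner of p75. Replicates 1, 2 and 3 of DMSO had 68.6, 11.2 and 24.7 normalized counts, and those of CA4 had 17.4, 11.2 and 17.8. A single library, DMSO replicate 1, stood above all others, and the remaining 5 lay between 11.2 and 24.7. The log2 fold change was -0.79 (standard error 0.63), -0.13 without DMSO replicate 1 and -1.39 without DMSO replicate 2. DMSO replicate 1 also had the highest MKI67, at 4849, and whether the 2 are linked was not tested. SORCS2 lies on chromosome 4 from 7192538 to 7742836 on the plus strand.

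In 2 of the 5 genes that could be fitted, BDNF and SORT1, the groups did not overlap, as in 27.7% of all tested genes. Because the set was drawn up from this contrast, nothing is read from this count. The same holds for the median log2 fold change of the 5, which was 0.52, the value of NTF3. That of all tested genes was -0.008.

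**Figure D1:**
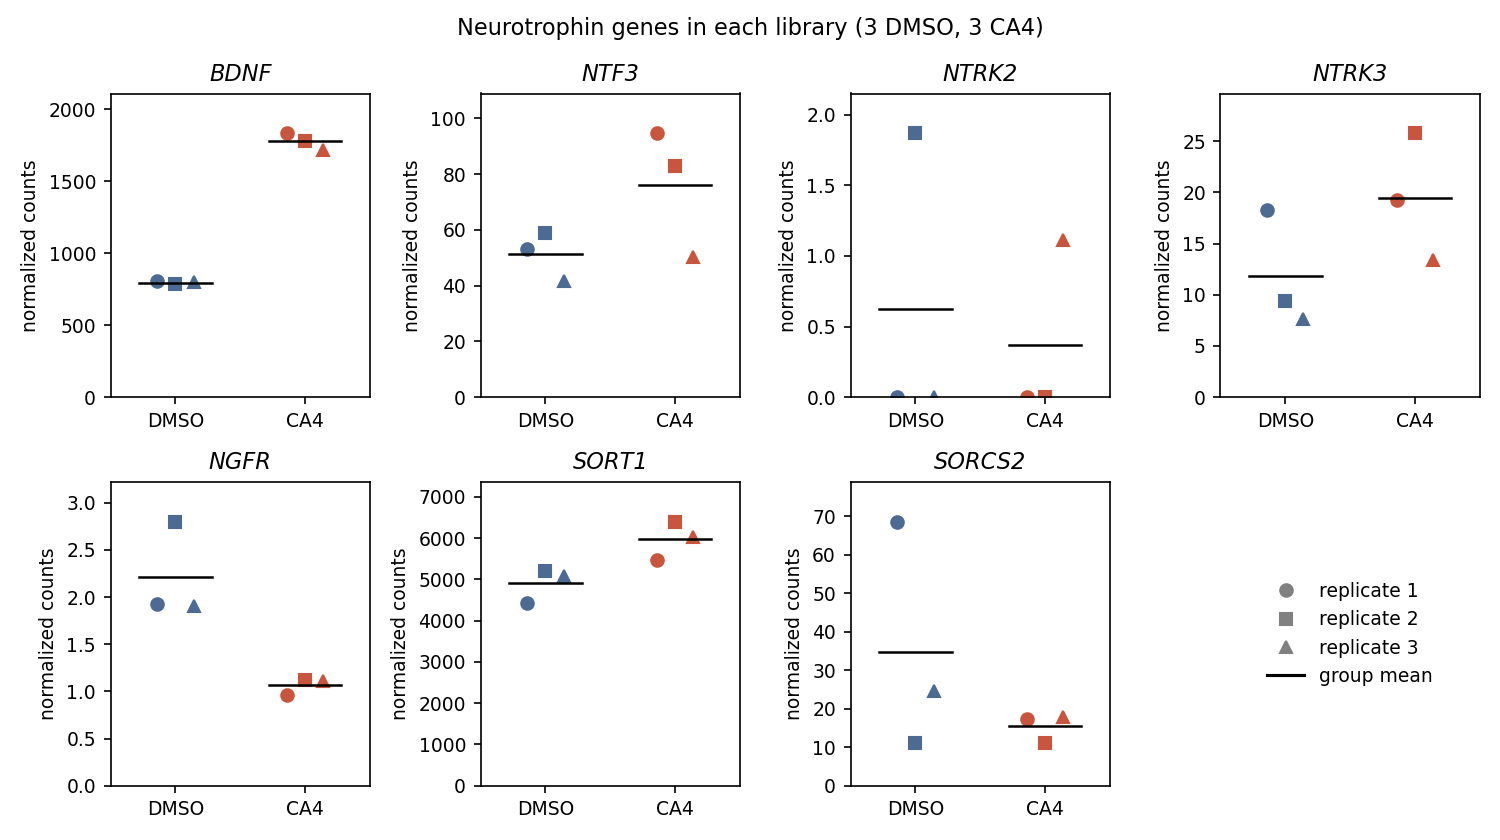
Normalized counts of the 7 neurotrophin genes (vertical axes, each from 0) in the 3 DMSO and 3 CA4 libraries, with symbols for the replicate number and lines for the group means. BDNF sits near 795 in DMSO and 1777 in CA4, the SORT1 groups are separate by a narrow gap, and the groups overlap in NTF3, NTRK2, NTRK3 and SORCS2.

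Levels of different genes were compared as normalized counts per kilobase of exon, using the union of exons in GENCODE 29, with NTF4, the gene of another neurotrophin ligand, beside the 7. SORT1 had 536 ± 44.5 in DMSO and 652 ± 50.9 in CA4, and BDNF 103 ± 1.12 and 230 ± 7.57 (SD, n = 3 each). NTF3 followed at 17.6 ± 2.98 and 26 ± 7.92 and SORCS2 at 5.51 ± 4.75 and 2.45 ± 0.585 (SD, n = 3 each). NGFR, NTRK3 and NTRK2 were all below 1 in every library. In DMSO the order was thus SORT1, BDNF, NTF3, SORCS2, with no overlap between neighbours, and then NGFR and NTRK3, which overlapped. In each library SORT1 was above BDNF and BDNF above NTF3. NTF4 averaged 21.6 ± 5.97 with DMSO and 24.4 ± 5.63 with CA4 (SD, n = 3 each), and it overlapped NTF3 in DMSO. These levels depend on the exon length used. With the longest annotated transcript of each gene the level of BDNF per kilobase was 167 in DMSO and 373 in CA4, still below SORT1 at 698 and 849.

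**Figure D2:**
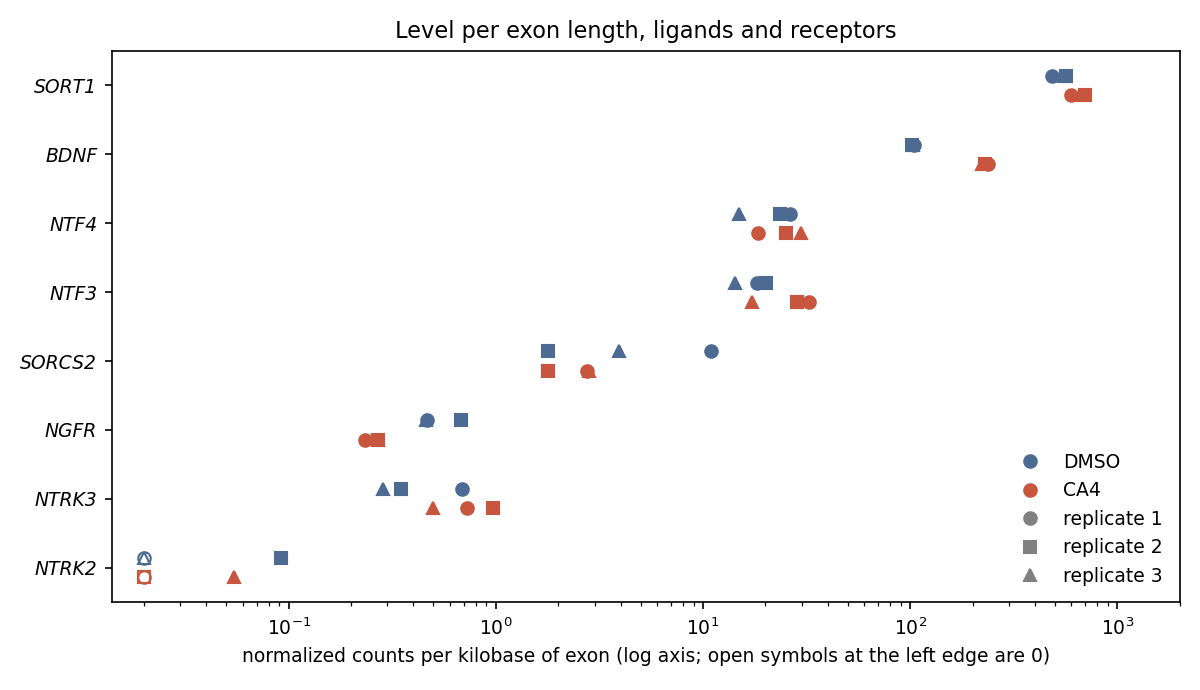
Normalized counts per kilobase of exon (horizontal log axis) for 3 neurotrophin ligand genes and 5 receptor genes, 1 symbol per library, blue for DMSO and red for CA4. SORT1 and BDNF lie above 100 in all libraries, and NGFR, NTRK3 and NTRK2 lie below 1, with the 4 libraries in which NTRK2 is listed at 0 drawn open at the left edge.

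The DMSO replicates of BDNF lay closer together than counting error, and its CA4 replicates a little further apart. The coefficient of variation was 1.09% in DMSO and 3.3% in CA4, and counting error alone at the mean number of reads is 3.46% and 2.44%. Pooled over both groups the standard deviation of BDNF was 0.035 on the log2 scale. Among 4054 tested genes with a mean within 2-fold of that of BDNF the median was 0.138, and 1.26% of them, 51 genes, had a smaller value. This spread was used to choose the gene and is given as a description. SORT1 and NTF3 were more variable than counting error in both groups. SORT1 had a coefficient of variation of 8.32% in DMSO and 7.81% in CA4, where counting error gives 1.39% and 1.34%. For NTF3 the 2 coefficients were 17% and 30.4%, against a counting error of 13.6% and 11.8%, and for SORCS2 they were 86.1% and 23.9%, against 16.6% and 26.1%, so its excess lay in DMSO alone.

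**Figure D3:**
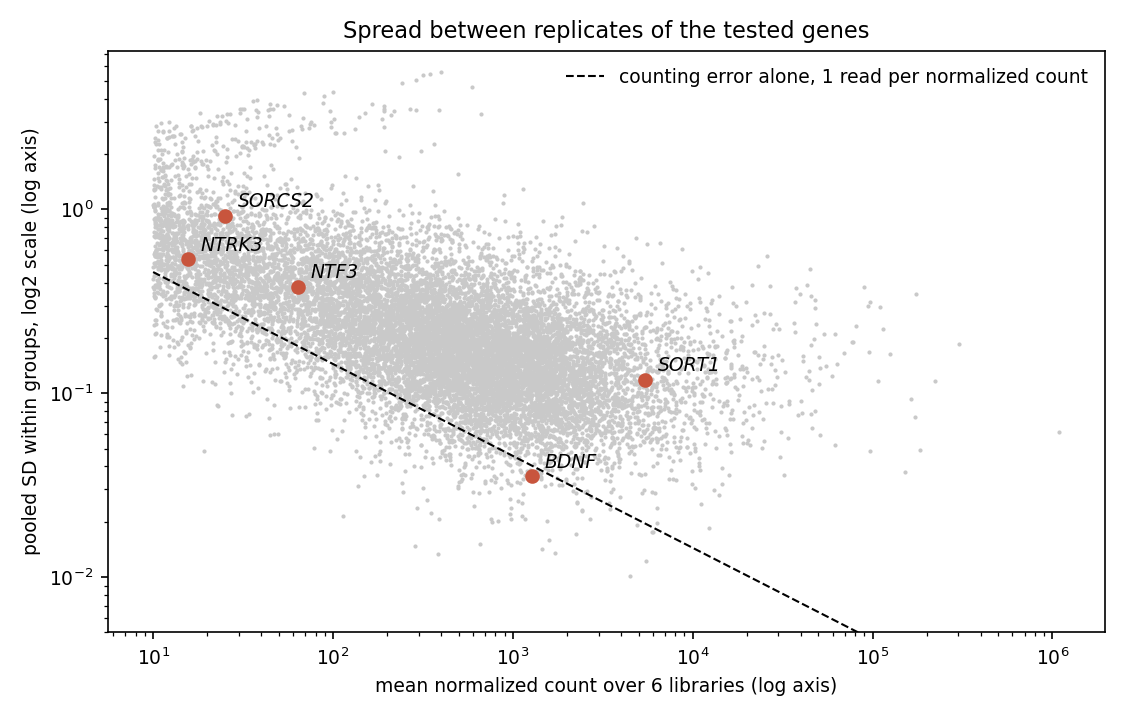
Pooled standard deviation within groups on the log2 scale against the mean normalized count over the 6 libraries for the 13928 tested genes (grey, both axes logarithmic), with the 5 fitted neurotrophin genes in red and the spread from counting error alone as a dashed line. BDNF, at 0.035, lies just under the dashed line, and SORT1, NTF3, NTRK3 and SORCS2 lie above it.

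The rest of the pathway was followed in 9 lists, with 143 genes in the table, of which 122 were tested and 11 passed, where 4.94% of all tested genes passed. The lists were chosen with earlier results of these data known, so their shares beside those of all genes are a description only. Of the other ligand, Trk and sortilin genes, 3 of 6 were tested and 0 passed in limma (0 at an unadjusted p under 0.05, 0 in edgeR and 0 in DESeq2). NTF4, which encodes a further ligand of TrkB, had a log2 fold change of 0.19 (SE 0.34), and SORL1, a sortilin-type receptor gene, 0.23 (SE 0.32). SORCS1 had a single read in all, and SORCS3 was listed at 0 in each of the 6 libraries.

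Among the genes for proteins that cut proneurotrophins or control that step, 8 of 13 were tested and 1 passed, 12.5% against 4.94% of all genes. FURIN, the protease that cuts proBDNF in the Golgi, had 7531, 7562 and 7814 in DMSO and 6855, 6362 and 6987 in CA4 for replicates 1, 2 and 3. The FURIN groups did not overlap, yet the log2 fold change of -0.18 (SE 0.07) did not pass (limma adjusted p = 0.184). PCSK7, a related convertase, had a log2 fold change of 0.85 (SE 0.20) and narrowly missed (limma adjusted p = 0.0564).

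For proteins that carry the signal of Trk receptors, 26 of 27 genes were tested and 0 passed in limma (8 at an unadjusted p under 0.05, 0 in edgeR and 4 in DESeq2). Of all 13928 tested genes, edgeR called 643 and DESeq2 1613, and the share at an unadjusted p under 0.05 is not given here. The most abundant, SHC1 and ABL1, had log2 fold changes of -0.05 and -0.02. Of the 26, 8 were higher and 18 lower in CA4. Closest to the threshold were KIDINS220 (log2 fold change -0.40, limma adjusted p = 0.07), NEDD4L (0.57, 0.071) and PLCG1 (-0.49, 0.0806). GAB1 had -1.04 (limma adjusted p = 0.103). Of the genes for partners of p75, 13 of 15 were tested and TRAF4, an adaptor that binds p75, was the 1 that passed, 7.69% against 4.94% of all tested genes. TRAF4 rose from a mean of 881 ± 135 to one of 1472 ± 83.1 (SD, n = 3 each; log2 fold change 0.75, SE 0.12, limma adjusted p = 0.0201), and 3 of the 6 fits without 1 library lost the call (adjusted p 0.028 to 0.0891). The more abundant p75 partners ARHGDIA and MAGED1 had log2 fold changes of 0.16 and -0.14 and did not pass. Of the genes for motors and adaptors that carry BDNF vesicles along microtubules, 11 of 12 were tested and 0 passed in limma (2 at an unadjusted p under 0.05, 0 in edgeR and 2 in DESeq2). DYNC1H1, the dynein heavy chain, had a log2 fold change of 0.05 (SE 0.08) and KIF5B, a kinesin heavy chain, 0.29 (SE 0.08).

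All 23 genes for factors known to act at BDNF promoters were tested and 3 passed, 13% of them against 4.94% of all tested genes, 2 higher and 1 lower in CA4. NPAS4, a factor induced by neuronal activity, had 25.1, 18.7 and 22.8 in replicates 1, 2 and 3 of DMSO and 51.2, 57.2 and 75.8 in those of CA4. Each CA4 library lay above each DMSO library, and the log2 fold change was 1.42 (SE 0.28, limma adjusted p = 0.0357). MEF2D rose by 0.47 on the log2 scale (SE 0.09, limma adjusted p = 0.0361). USF1, an E-box factor, fell by 0.53 (SE 0.10, limma adjusted p = 0.0325). Leaving out 1 library lost the call of NPAS4 and of USF1 in 5 of 6 fits each and that of MEF2D in all 6. MEF2A and BHLHE40 were the most abundant that did not pass, with log2 fold changes of 0.58 and 0.02.

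Of the genes known to be induced together with BDNF by activity or cAMP in neurons, 19 of 22 were tested and 5 passed, 26.3%, all higher in CA4, where 2.97% of all genes were called higher. DUSP1, a phosphatase of MAP kinases, rose from a mean of 1046 ± 39 to one of 2958 ± 138 (SD, n = 3 each; log2 fold change 1.498, SE 0.079, limma adjusted p = 0.000438). NR4A1, an orphan nuclear receptor, rose by 2.52 on the log2 scale (SE 0.26, limma adjusted p = 0.0057). Both calls held in all 6 fits without 1 library. INHBA, which encodes an activin subunit, and JUNB, an AP-1 subunit, rose by 0.80 and 0.51 (limma adjusted p = 0.0356 and 0.0471), and each lost its call in 5 of those 6 fits. NPAS4, on this list as well, was the fifth. IER2 and GADD45B had log2 fold changes of 0.72 and 0.33 and did not pass. Of the 19 tested, 15 had a positive log2 fold change and 4 a negative one. The 4 were SIK1 at -0.82 (SE 0.20, limma adjusted p = 0.0588), FOS at -0.48, NR4A2 at -0.16 and EGR2 at -0.15. ARC, NPTX2 and PPARGC1A were too low to test. The lists' median log2 fold changes were 0.19 for the other family members, 0.13 for processing, -0.09 for Trk adaptors, 0.07 for p75 partners, -0.02 for the promoter factors, 0.51 for the activity genes, 0.2 for the other neurotrophic factors, 0.11 for transport and -0.14 for the neighbours, beside -0.008 for all tested genes.

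Among neurotrophic factors of other families and their receptors, 15 of 21 genes were tested and LIF was the 1 that passed, 6.67% of them, near the 4.94% of all tested genes. LIF, a cytokine related to interleukin 6, rose from a mean of 4759 ± 2244 to one of 17211 ± 2646 (SD, n = 3 each; log2 fold change 1.94, SE 0.295, limma adjusted p = 0.0168). The LIF call was lost in 4 of the 6 fits without 1 library (adjusted p 0.00273 to 0.0749). IL6ST, the signalling subunit of its receptor, and MANF, a secreted neurotrophic factor of the endoplasmic reticulum, had log2 fold changes of 0.20 and 0.45 and did not pass. All 5 neighbours of BDNF on chromosome 11 that the table holds were tested, and 1 passed, lower in CA4, where 1.97% of all tested genes were called lower. This was LGR4, a receptor of R-spondins, which fell from a mean of 2654 ± 441 to one of 999 ± 176 (SD, n = 3 each; log2 fold change -1.41, SE 0.16, limma adjusted p = 0.00858), in the opposite direction to BDNF. LIN7C, the gene next to BDNF, had a log2 fold change of 0.11 (SE 0.11) and METTL15 -0.02 (SE 0.13). Neither passed.

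**Figure D4:**
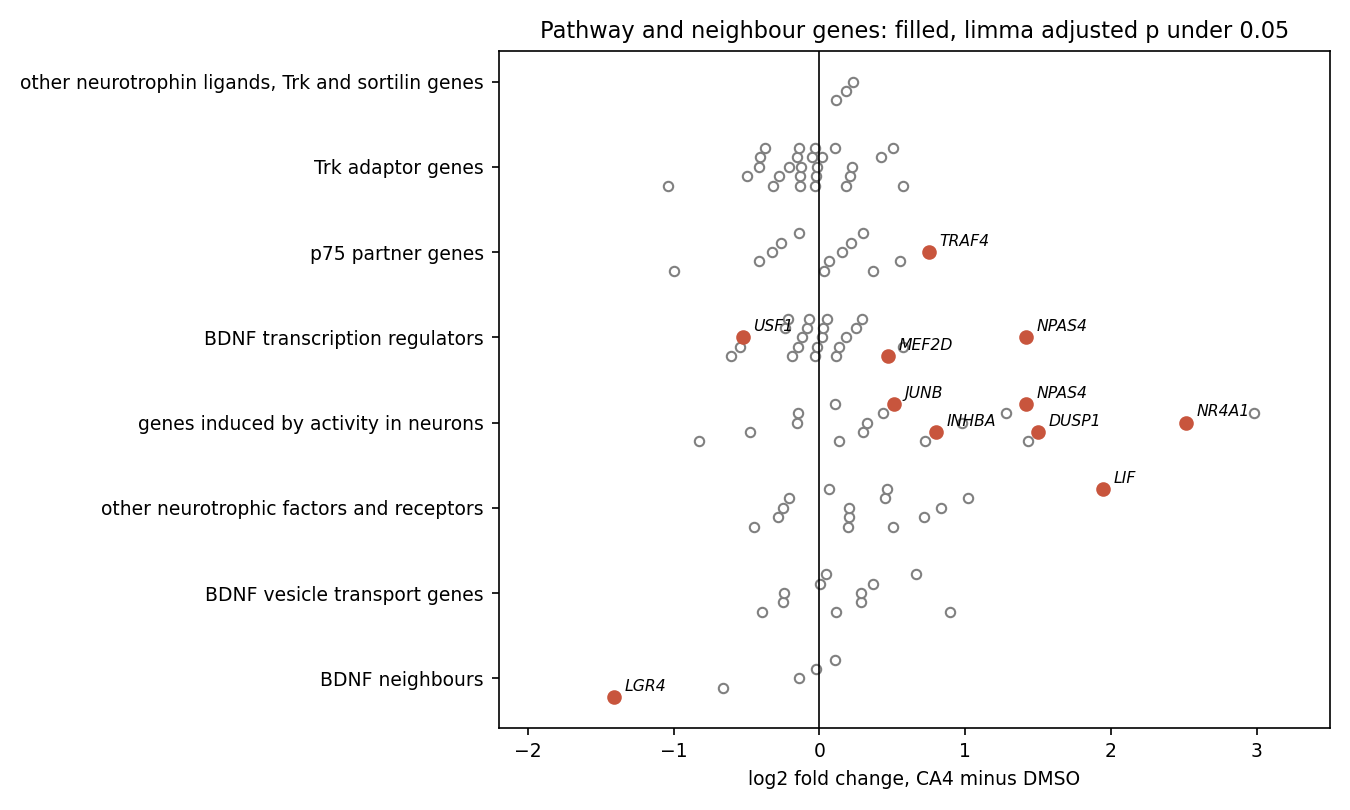
Log2 fold change of CA4 over DMSO (horizontal axis) for each tested gene of 8 lists (all but the processing genes), 1 row per list, with genes past a limma adjusted p of 0.05 filled and named. The 5 filled genes of the list of genes induced by activity in neurons lie to the right, LGR4 lies at -1.41, and 0 genes are filled among the Trk adaptors, the vesicle transport genes and the other ligand, Trk and sortilin genes.

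The profile of BDNF over the 6 libraries was compared with those of 11688 other genes whose mean reached 50 normalized counts. Each gene was centred on its own mean of log2 values, and likeness was the root mean square difference from BDNF. The 5 nearest genes were NRXN3, a neurexin of synaptic contacts, CDKN1A, the inhibitor p21 of cell cycle kinases, PDLIM5, an actin-associated LIM protein, ALS2CL and TRIO, exchange factors of small GTPases. Their differences from BDNF were 0.081, 0.087, 0.094, 0.099 and 0.111 on the log2 scale, against a median of 0.609 over all genes ranked. The centred CA4 values of BDNF were 0.53 to 0.625, so a gene without change differs from it by about as much. The ranking uses the rise and small spread by which BDNF was chosen, and it is given as a description. NRXN3 averaged 824 ± 48.3 under DMSO and 1876 ± 209 under CA4 (SD, n = 3 each). The log2 fold changes of the 5, in the order given, were 1.18, 1.147, 1.12, 1.06 and 1.275. The next gene in the ranking differed by 0.115, so the order is finely graded. Without DMSO replicate 1, 0 of the 5 stayed among the 5 nearest, and without any other single library 3 or 4 did.

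**Figure D5:**
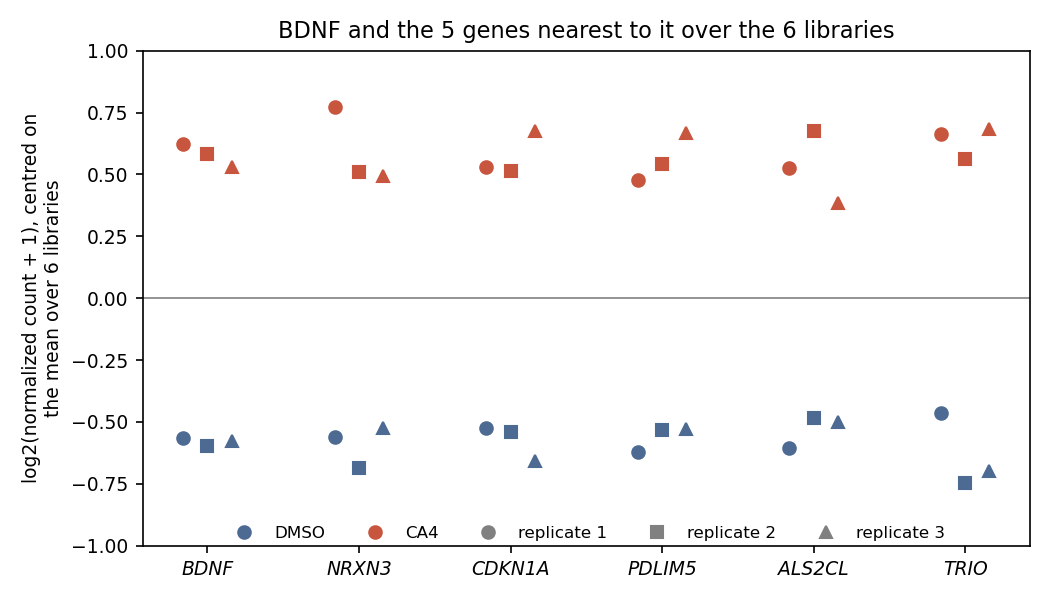
Log2(normalized count + 1) of BDNF and the 5 genes nearest to it, each centred on its mean over the 6 libraries (vertical axis), with blue for DMSO, red for CA4 and symbols for the replicate number. The DMSO values of BDNF lie between -0.596 and -0.564 and its CA4 values between 0.53 and 0.625, and the other 5 genes show a wider spread within groups.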

How the data were processed

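PolyA RNA of 6 libraries of hTERT RPE1 cells was sequenced, 3 with CA4 and 3 with DMSO, and groups and replicate numbers came from the sample titles. The deposited values are a signal, normalized counts, in which the authors divided the reads of each gene by 1 size factor per library. The submitters' processing notes name GRCh38, Trim Galore 0.6.6, FastQC 0.12.1, Salmon 1.8.0, STAR 2.7.9a and DESeq2 1.44.0, with no role or order. The annotation release and the use of strand are not given in the sources used here. In each column 100% of values were whole multiples of 1 step within a tolerance of 0.01, and dividing by that step gave whole reads, which may be rounded estimates. Symbols came from the supplied table, which matched 35803 of 38900 IDs. The labels do not say whether replicates were separate cultures, so p-values measure only the spread between these libraries, which may be technical.

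Genes whose mean reached 10 normalized counts were fitted on log2(normalized count + 1) with limma 3.58.1 in R 4.3.3 (treatment as the only term, mean trend, two-sided), with Benjamini-Hochberg adjustment over all 13928 tested genes and a threshold of 0.05. On this scale the change of a gene with few reads comes out too small. Errors are sample standard deviations, or the moderated standard errors of limma. Counting errors cover sampling of reads only. The members and the lists were chosen with earlier results of these data known. Named genes are every member, in each list up to 6 genes past the threshold and the 2 most abundant that did not pass, and the 5 genes nearest to BDNF. Other names were chosen after their values were seen, and some genes that this rule or the lists hold are not reported here. Alternatives were other pseudocounts, filters and scalings, no variance trend, the replicate number as a block, leaving out each library, and count models on the recovered reads (edgeR 4.0.16, which called 643 genes, and DESeq2 1.42.0). In simulated counts of the 13928 genes with 200 changed 2-fold, limma recovered 53% of the changed genes and 4.5% of its calls were false; DESeq2 recovered 71% and 25.3% of its calls were false.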

Additional observations from a re-analysis of the deposited data

How the results depend on the processing

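The log2 fold change of BDNF was 1.16, and with all 6 libraries the alternatives gave 1.06 (libraries scaled to an equal total) to 1.16; without 1 library it ran from 1.14 to 1.18. Those of NTF3, NTRK3, SORT1 and SORCS2 kept their sign in each fit that tested them, and without 1 library ran from 0.34 to 0.79, 0.49 to 1.07, 0.21 to 0.34 and -1.39 to -0.13. The 688 genes past the threshold (413 higher, 275 lower) became 103 (51 and 52) without a variance trend and 1613 (907 and 706) by DESeq2. With equal totals they became 802 (279 and 523). Leaving out 1 library gave 81 to 994 (50 to 605 higher, 31 to 389 lower): 994 without DMSO replicate 1, 100 without DMSO replicate 2, 81 without DMSO replicate 3, 156 without CA4 replicate 1 and 150 without CA4 replicate 3. The cause of these shifts was not tested.

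With the replicate number as a replicate block 2397 genes passed (1260 higher, 1137 lower). After centring within groups, same-numbered libraries correlated at 0.202, 0.159 and 0.059, and differently numbered ones at -0.214 to 0.074. The main fit leaves the number out because the labels do not say that it marks a shared culture or day. Whether it does cannot be told from these values, and if it does, the main fit ignores a pairing. As a hint from the data, 5 of the 6 libraries correlated best with their own number, and CA4 replicate 3 correlated best with DMSO replicate 2 (0.074). Under the replicate block the lists had 3 genes past the threshold for processing, 6 for Trk adaptors, 6 for p75 partners, 6 for promoter factors, 11 for activity genes, 5 for other neurotrophic factors and 2 for transport. DESeq2 gave 2, 4, 2, 5, 8, 3 and 2 in the same order. Without a variance trend processing, p75 partners and other neurotrophic factors had 0, promoter factors 1 and activity genes 3. A minimum mean of 50 gave 2 for processing and 2 for other neurotrophic factors; quantile normalization gave 3 for activity genes and 2 for other neurotrophic factors, and no filter gave 3 for activity genes. Equal totals gave 2 for Trk adaptors and 1 for transport. Without 1 library the ranges were 0 to 2 for processing, 0 to 4 for Trk adaptors, 0 to 1 for p75 partners, 0 to 2 for promoter factors, 2 to 6 for activity genes, 0 to 2 for other neurotrophic factors and 0 to 1 for transport. NTRK2 and NGFR are limited by depth, with at most 3 reads a library.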
